A study of Mus musculus with 3 samples.

Results

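The genes described here encode the enzymes with which the nasal epithelium of the mouse oxidizes and conjugates foreign compounds. They were taken by symbol from the 55357 genes of the deposited feature list: cytochrome P450 families Cyp1 to Cyp4, flavin monooxygenases (Fmo), UDP-glucuronosyltransferases (Ugt), glutathione S-transferases (Gst), sulfotransferases (Sult) and the Aldh1 and Aldh3 aldehyde dehydrogenases. Of 205 genes with a fitting symbol, 64 had no transcript counted and 59 had 1 to 99, and the 82 with at least 100 unique molecular identifiers (UMIs, each standing for 1 captured transcript) over all libraries are the members. They were thus chosen by their summed UMI counts, so that their presence and abundance are a description. The symbol rule also takes in Aldh16a1 and Aldh18a1, the latter an enzyme of proline synthesis and not of drug metabolism. Cyp4f41-ps with 119 UMIs, Cyp4x1 with 107 and Ugt2b38 with 105 lay just inside the limit, and Cyp2c23 with 89, Fmo4 with 84 and Cyp2b19 with 72 just outside it.

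The study profiled single cells of nasal mucosa from C57BL/6J mice (C57BL/6 in the series' design text) in a model of eosinophilic chronic sinusitis. Control mice received PBS in the nose. The model group received 20 µg of papain, a plant cysteine protease, in the nose and PBS by the intragastric route. The treated group received the same papain and 10 mg/kg of intragastric lonidamine, an inhibitor of hexokinase. They are called the PBS, papain and lonidamine libraries below, and 3 values in a row are always in this order. Each group contained males and females in equal numbers per the design text, and all mice of a group were pooled into 1 library. The age and number of the mice are not given in the sources used here. With 1 library per group there is no replicate check and no test: every difference compares libraries. Tissue was dissociated enzymatically (collagenases I and II with Dispase), and libraries were made with 10x Genomics 3′ chemistry. The library name of the papain library reads Fibroblast in its labels, but its title and treatment name the model, and it held epithelial, neuronal, stromal and immune cells alike.

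The nasal mucosa is one of the sites outside the liver richest in such enzymes. Cytochrome P450 enzymes and flavin monooxygenases add oxygen to inhaled compounds, aldehyde dehydrogenases turn reactive aldehydes (and retinaldehyde, the precursor of retinoic acid) into acids, and transferases attach glutathione, sulfate or glucuronic acid so that the product can be excreted. In the olfactory part they are best known from sustentacular cells, the supporting cells around the sensory neurons, and from Bowman's glands beneath them, where they also clear odorants.

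The promoters of 4 genes are printed because the results turn on the pairs they belong to: Cyp1a1 and Cyp1a2, neighbours on the same chromosome and both classic targets of the aryl hydrocarbon receptor, and Cyp2a5 and Cyp2a4, close relatives with very different counts. Sequences are from RefSeq, mouse build GRCm38.p6 (the deposited counts name GRCm39, so these positions hold for the older build), 5′ to 3′ along the gene, the 250 bases before the transcription start. The Cyp1a1 promoter is chr9:57697363-57697612 on the plus strand, the Cyp1a2 promoter chr9:57683656-57683905 on the minus strand, the Cyp2a5 promoter chr7:26835089-26835338 and the Cyp2a4 promoter chr7:26306942-26307191, both on the plus strand. In the Cyp1 sequences, capitals mark GCGTG, the core of the site bound by the aryl hydrocarbon receptor (searched on both strands), and TATAAA, the TATA box (searched on the printed strand). In Cyp2a4, capitals mark the 4 bases that differ from Cyp2a5.
Cyp1a1: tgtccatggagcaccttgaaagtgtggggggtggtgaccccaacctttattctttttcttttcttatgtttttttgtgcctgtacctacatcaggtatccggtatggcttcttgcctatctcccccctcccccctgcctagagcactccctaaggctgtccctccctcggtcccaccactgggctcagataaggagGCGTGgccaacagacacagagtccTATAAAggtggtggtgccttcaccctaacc
Cyp1a2: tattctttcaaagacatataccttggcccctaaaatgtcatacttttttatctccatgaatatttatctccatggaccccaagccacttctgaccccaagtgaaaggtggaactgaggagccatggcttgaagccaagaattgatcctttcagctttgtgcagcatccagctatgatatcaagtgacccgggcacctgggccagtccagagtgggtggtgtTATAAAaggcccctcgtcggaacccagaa
Cyp2a5: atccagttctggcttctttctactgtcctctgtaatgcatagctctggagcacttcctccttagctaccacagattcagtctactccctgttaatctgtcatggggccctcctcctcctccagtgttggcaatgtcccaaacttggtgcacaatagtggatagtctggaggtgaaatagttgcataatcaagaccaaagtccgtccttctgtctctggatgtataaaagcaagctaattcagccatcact
Cyp2a4: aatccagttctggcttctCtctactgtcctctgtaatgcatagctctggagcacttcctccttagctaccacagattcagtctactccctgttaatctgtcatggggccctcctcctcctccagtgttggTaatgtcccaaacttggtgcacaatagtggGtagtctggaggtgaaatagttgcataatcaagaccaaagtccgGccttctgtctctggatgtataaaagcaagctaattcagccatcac
The Cyp1a1 window held 1 such core, beginning 54 bases before the start, and a TATA box 30 bases before it. The Cyp1a2 window held a TATA box and no core. Cyp2a5 and Cyp2a4 shared 245 of 249 aligned bases (98.4%), against 76 of 248 (30.6%) for the Cyp1 pair. GCGTG was found in 28.2% of all 27025 RefSeq promoters of this length and in 17 of the 64 members with a promoter (26.6%). TATAAA was found in 8.12% of all and 9 of the 64. TGACNNNGC, the core of the antioxidant response element searched on both strands, was found in 10.1% of all and 4 of the 64. A match describes these letters only.

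The members held 538102, 1135739 and 1392901 UMIs, which was 0.653%, 1.32% and 1.56% of all UMIs of the libraries. The 13 Cyp2 genes held 50.1% of these molecules, 19 Gst genes 25.2%, 10 Sult genes 11.2%, 13 Aldh genes 5.78%, 5 Fmo genes 4.25%, 3 Cyp1 genes 1.83% and 13 Cyp4 genes 1.35%. The 5 Ugt genes and Cyp3a13, the single Cyp3 member of 11 with a fitting symbol, held 0.183% and 0.190%. The 5 leading members alone, Cyp2a5 (coumarin hydroxylase), Cyp2f2 (which activates naphthalene), Gsto1 (an omega class transferase that reduces dehydroascorbate), Cyp2g1 (a P450 first known from olfactory tissue) and Sult1c1, made up 65.7%. The 13 Cyp2 members came from 73 matching Cyp2 genes.

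After filtering, 9378, 10524 and 11887 cells remained of 9740, 11071 and 12598 barcodes, from 82399462, 86197965 and 89164040 deposited UMIs, with medians of 7352.5, 6547 and 5823 UMIs per cell. Some properties set the PBS library apart or moved in step with the groups, and their part in the results was not tested. The nuclear 18S ribosomal transcript Rn18s-rs5 took 0.886%, 3.65% and 3.50% of UMIs. Of cells that could be assigned a sex from Xist and Y-linked transcripts, 56.8% [55.6, 58.0], 73.2% [72.2, 74.1] and 83.1% [82.3, 83.8] were female. Square brackets are 95% intervals (exact binomial for shares, conditional binomial of 2 Poisson counts for ratios) and cover counting error only. Pairs of libraries shared 22 to 38 cell barcodes. Classes were gated cell by cell on marker genes that exclude all members, and levels are counts per 1000000 UMIs of the class (CPM). Because 1 UMI is 1 molecule read at its 3′ end, CPM can be compared between genes without a length correction.

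The gates held 90, 445 and 600 sustentacular-like cells and 569, 1343 and 1508 basal epithelial-like cells. They also held 181, 146 and 166 gland-like cells marked by Bpifb6, Ptgds and Ces1a, and 159, 190 and 281 cells marked by Chil6 and Muc5b. The Chil6 Muc5b gate was added after the data were seen, beside 25 fixed marker sets. Which members lead in that gate is thus a description. Sustentacular-like cells had 5 of 8 markers above a median of 0 (Cbr2, Sec14l3, Muc2, Ermn and Kcnk2), the other 3, Chil6 among them, had a median of 0, and basal cells had all 6 of theirs. The genes of the Chil6 Muc5b gate (Chil6, Muc5b, Spdef, Bpifb4, Wfdc18 and Aqp5) are themselves markers of several other types. Such markers in these cells thus follow in part from the gate. Summed markers of serous gland stood at 6191, 28031 and 23497 CPM in them. Of these, Wfdc18 was 3089, 22767 and 19953 and Aqp5 2980, 2168 and 1893. The cells are called by their genes and given no type. Leukocytes, which should lack most members, serve as the reference for RNA free in the suspension: Cyp2a5 read 212, 318 and 464 CPM in them, Cyp2f2 113, 308 and 297 and Gsto1 113, 311 and 295. Over all PBS cells Cyp2a5 read 1818, Cyp2f2 826 and Gsto1 241 CPM, so Gsto1 in leukocytes was higher in proportion. Whether leukocytes express Gsto1 themselves was not tested, and its reference may lie above the level of free RNA. A class level near these values is not read as expression. Leukocytes were the shallower cells, at medians of 4667.5, 3049 and 2846 UMIs. Sustentacular-like cells had 15466.5, 13361 and 11841.5, and basal cells 9375, 8359 and 7560. Levels were not matched for depth in this comparison, and the part of depth was not tested.

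Members differed in the cell class that held them at the highest level. Of the classes, 23 had 15 or more cells in each library and were ranked. Epithelial-like cells marked by Alox12e, Gp2 and Clca1, with 1 PBS cell, were thus not ranked, although their Gsto1 and Aldh1a1 levels in the papain and lonidamine libraries were above those of every ranked class. In this ranking 14 members had their highest mean CPM in Chil6 Muc5b cells, 12 in sustentacular-like cells, 10 in duct-like cells marked by Klk1, Fxyd2 and F5, 7 in olfactory ensheathing-like cells, 6 in secretory-like cells and 4 each in basal and endothelial-like cells. For 20 of 82 the leading class was at least 3-fold above the next, and for 41 the leading class was the same in every library. Of the 10 led by duct-like cells, 0 were at least 3-fold above the next class and 2 had the same leading class in every library. No share over all genes is given beside these counts, so they describe the members only.

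**Figure D1:**
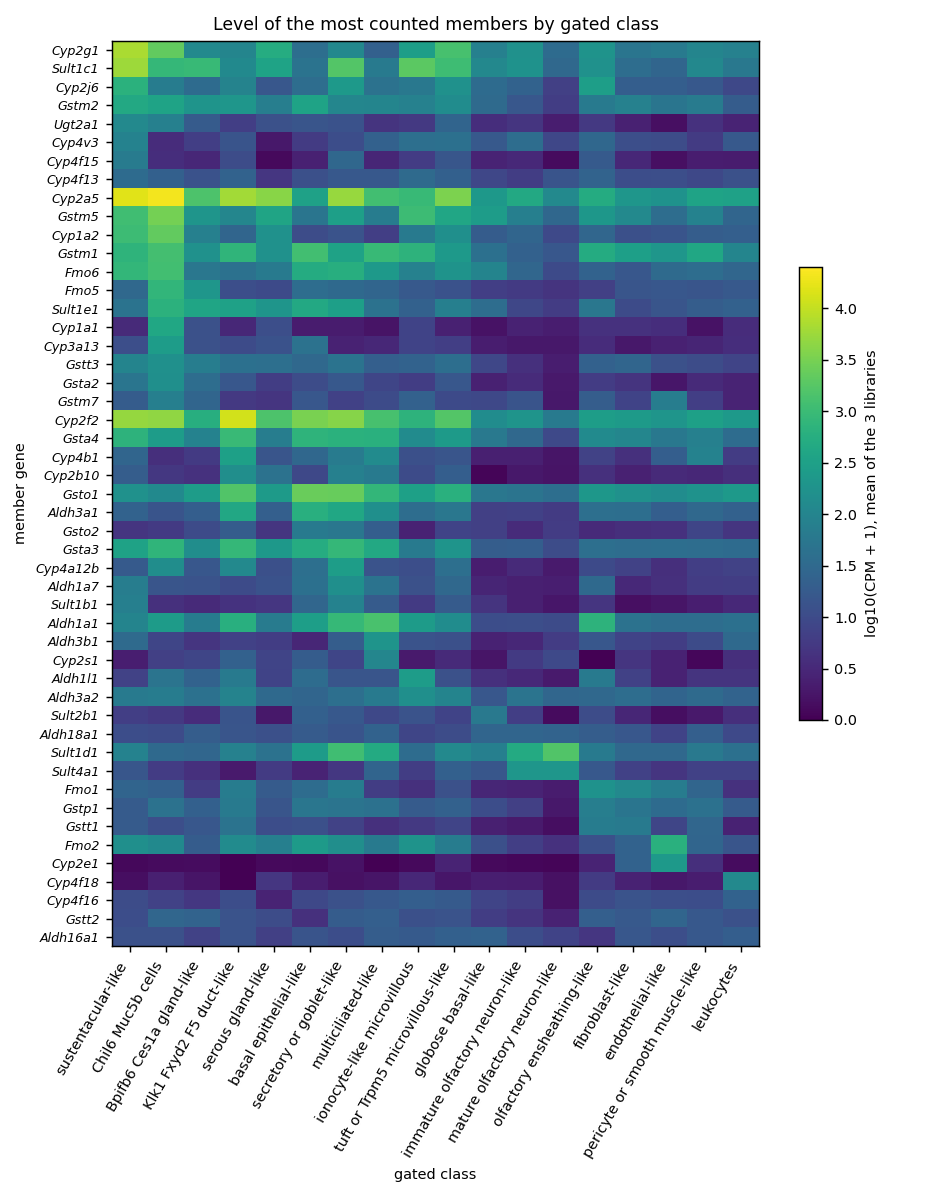
Mean level over the 3 libraries, as log10(CPM + 1) on the colour scale, of the most counted members (rows, ordered by the class that leads them) in 18 gated classes (columns). Cyp2a5 is high in sustentacular-like, Chil6 Muc5b and duct-like cells, while Cyp1a1 is bright in Chil6 Muc5b cells and dark elsewhere, and Cyp2e1 is bright in endothelial-like cells.

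Among the P450 genes, Cyp1a1, which oxidizes polycyclic aromatic hydrocarbons, had the widest gap of the 82 members between its leading class and the next. It averaged 413 CPM in Chil6 Muc5b cells against 11.4 in the next class, a 36.3-fold gap, with 1.61, 1.99 and 3.39 in sustentacular-like cells. Its neighbour Cyp1a2 was broader, averaging 2236 CPM in Chil6 Muc5b and 1039 in sustentacular-like cells. Cyp2g1 led in sustentacular-like cells (6843 CPM, 3.17-fold above Chil6 Muc5b cells). Cyp2f2 was highest in the few duct-like cells (28, 37 and 53 cells), at 11766, 11670 and 14962 CPM. Cyp2a5 led in Chil6 Muc5b cells of the PBS and lonidamine libraries and in sustentacular-like cells of the papain library.

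Other P450 genes marked cells outside the secretory and supporting epithelium. Cyp2j9 averaged 124 CPM in olfactory ensheathing-like cells, the glia of the olfactory nerve, 13.7-fold above the next class. The ensheathing-like class was small, at 16, 123 and 98 cells. Cyp2e1, known for ethanol oxidation in liver, averaged 236 CPM in endothelial-like cells (9.97-fold). Cyp1b1 averaged 68.9 CPM in fibroblast-like cells (6.55-fold). Cyp4f18, a leukotriene hydroxylase, averaged 413 CPM in neutrophil-like cells, and Cyp2s1 102 in multiciliated-like cells. These members share symbol families with the epithelial ones but had their highest levels in glia, vessels, stroma, leukocytes or ciliated cells.

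The flavin monooxygenases split in the same manner. Fmo5, which acts on ketones and esters, averaged 796 CPM in Chil6 Muc5b cells (3.92-fold above the next class), and Fmo6 1167 there. Fmo2 averaged 613 CPM in endothelial-like cells. Among aldehyde dehydrogenases, Aldh3a1, which clears lipid and aromatic aldehydes, led in basal cells (589.5 CPM), Aldh1a1, among ranked classes, in multiciliated-like cells (1351) and Aldh1a2, a second retinaldehyde dehydrogenase, in fibroblast-like cells (146). Aldh1l1, a folate enzyme, led in ionocyte-like microvillous cells (271 CPM, 4.42-fold).

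Of the conjugating enzymes, Sult1c1 averaged 5650 CPM in sustentacular-like cells, 2.92-fold above ionocyte-like cells. Sult1d1, which sulfates catecholamines, was instead most abundant in mature olfactory neuron-like cells at 1384, 1702 and 1795 CPM. Neurons held 66.8%, 45.9% and 53.1% of its UMIs. Ugt2a1, the olfactory glucuronosyltransferase, averaged 116 CPM in sustentacular-like cells, and Gstm5 2986 in Chil6 Muc5b cells. Among ranked classes Gsto1 had nearly equal highest means in basal and secretory-like cells (2528 and 2374 CPM).

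The RefSeq gene table placed 80 members, and 58 of them lay in 17 runs with at most 5 other genes between members. A leading class can rest on a small gap, so the runs are not compared as a group. On chromosome 7, Cyp2g1, Cyp2a5 and Cyp2f2 led in sustentacular-like, Chil6 Muc5b and duct-like cells in turn. Cyp1a1 and Cyp1a2 both led in Chil6 Muc5b cells.

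Papain was compared with PBS first over all cells. This comparison mixes what a cell contains with how many cells of each kind were captured, and fewer cells of a type and less RNA per cell cannot be told apart in it. A member counts as higher or lower here when its CPM, with 0.5 counts added to each sum, differed at least 2-fold and the counts summed to 50 or more. Of 81 members read, 29 were higher and 2 lower in the papain library, where 9.19% of all 20219 genes read were higher and 4.97% lower. The median log2 ratio was 0.40 over members and -0.02 over all genes.

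Aldh1a7, Gsto1, Aldh1a1, Gsto2 and Sult1c2 were among the widest differences over all cells. Aldh1a7, a close relative of Aldh1a1, stood at 4.65, 50.04 and 52.1 CPM (papain over PBS 3.43 [3.27, 3.58] on the log2 scale). Gsto1 stood at 241, 1850 and 1820 CPM (2.94 [2.92, 2.96]), Aldh1a1 at 64.6, 446 and 505 (2.79 [2.75, 2.83]) and Gsto2 at 5.75, 38.2 and 31.0 (2.73 [2.59, 2.88]). For each of these the PBS library was the low one and the others lay close together. Sult1c2 had 17, 129 and 40 UMIs (2.84 [2.14, 3.69]) and Cyp4f40 12, 79 and 99 (2.62 [1.78, 3.68]). The lower members were Sult6b1 (-1.36 [-2.01, -0.77]) and Aldh1b1 (-1.12 [-1.47, -0.79]), both rare.

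Much of the Gsto1 and Aldh1a1 RNA of the papain and lonidamine libraries was in cells that the PBS library hardly held. Epithelial-like cells marked by Alox12e, Gp2 and Clca1 numbered 1, 219 and 181, and carried 0.151%, 33.2% and 22.5% of all Gsto1 UMIs and 0.174%, 28.2% and 20.7% of all Aldh1a1 UMIs. Gsto1 read 14316 and 12464 CPM in these cells of the papain and lonidamine libraries, and Aldh1a1 2937 and 3183. With 1 PBS cell, no ratio is formed for them. For the leading P450 genes the composition shifted too: sustentacular-like cells held 11.5%, 40.3% and 36.9% of Cyp2a5 UMIs, and Chil6 Muc5b cells 56.6%, 22.6% and 26.5%.

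Lonidamine was then compared with papain, which shares the papain library with the first comparison. Over all cells, 6 of 82 members were higher and 1 lower, against 2.25% and 1.27% of 20312 genes. Cyp2a4, a steroid hydroxylase, stood at 4.24, 2.94 and 10.2 CPM (lonidamine over papain 1.79 [1.58, 2.001]), Cyp1a1 at 18.4, 13.9 and 35.2 (1.34 [1.24, 1.44]) and Fmo5 at 51.4, 40.7 and 93.3 (1.20 [1.14, 1.26]). In each of these the lonidamine library was the highest and the papain library the lowest. Cyp4a12a, a fatty acid hydroxylase, stood at 1.54, 2.40 and 6.76 CPM (1.49 [1.26, 1.73]), and its lonidamine over papain ratio was 2.06 [1.73, 2.42] in female and 0.45 [-0.02, 0.93] in male cells. Gsta1 (1.19 [0.83, 1.57]) and Ugt1a6a (1.05 [0.53, 1.60]) were higher with few counts, and Sult1c2 was lower (-1.71 [-2.27, -1.20]).

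In sustentacular-like cells, 5 of the 8 leading members (Cyp2a5, Cyp2g1, Sult1c1, Cyp2f2 and Gstm5) were lowest in the PBS library, and Cyp1a2, Fmo6 and Gstm1 were highest there. The gate's own summed markers were also lowest under PBS, at 10416, 19124 and 20961 CPM, and summed mature neuron markers were highest there, at 3079, 824 and 724 CPM. Their part in the ratios of this gate was not tested. Cyp2g1 stood at 4328, 8180 and 8022 CPM (0.92 [0.88, 0.96]) and Cyp2f2 at 2712, 5724 and 6526 (1.08 [1.03, 1.13]). Cyp2a5, the most abundant member, differed less at 13411, 16208 and 17770 CPM (0.27 [0.25, 0.30]). Sult1c1 stood at 4306, 6456 and 6190 and Gstm5 at 695, 1322 and 1367 CPM, again with the PBS library lowest. Cyp1a2 stood at 1128, 995 and 993 CPM, and Fmo6 stood at 905, 723 and 822 CPM (-0.32 [-0.42, -0.23]).

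Of 48 members read in these cells, 12 were at least 2-fold higher under papain and 4 lower, against 4.97% and 5.37% of 9858 genes. Leaving mitochondrial, haemoglobin and ribosomal RNA out of the totals took the 4 to 1. The median log2 ratio was 0.29 over members and -0.10 over all genes read. Ugt2a1 was higher at 50.7, 146 and 152 CPM (1.52 [1.16, 1.92]). So was Gsto1, at 35.4, 181 and 294 CPM (2.34 [1.92, 2.83]), but in each library this level was at or below that of leukocytes. Cyp4a12b (2.74 [1.37, 5.26]), Sult1a1 (2.58 [0.99, 5.96]), Cyp3a13 (1.81 [0.55, 3.88]) and Aldh3a1 (1.62 [0.73, 2.85]) were higher with 2 to 9 PBS counts each. Summed markers of Alox12e Gp2 Clca1 epithelial cells, which hold much Gsto1, read 306, 2537 and 1637 CPM in this gate, and their part in its ratios was not tested. Gstm1 was the one abundant member past 2-fold downward, at 1039, 513 and 629 CPM (-1.02 [-1.11, -0.92]). Sult4a1 (-1.34 [-2.000, -0.63]), an orphan sulfotransferase of neurons, was also lower, as the mature neuron markers of the gate were. Aldh16a1 (-1.07 [-1.83, -0.21]) and Aldh18a1 (-1.06 [-1.84, -0.18]) were lower with 20 and 19 PBS counts.

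Lonidamine against papain left sustentacular-like cells nearly level: 1 of 56 members was higher and 1 lower, against 1.25% and 0.685% of 11393 genes. The lower one was Aldh1a3, a retinaldehyde dehydrogenase, with 2, 46 and 4 UMIs (-3.66 [-5.75, -2.36]). Among the leading members the ratio ran from -0.06 for Sult1c1 to 0.30 for Gstm1. Asking for 1 more marker in the gate took both counts to 0.

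**Figure D2:**
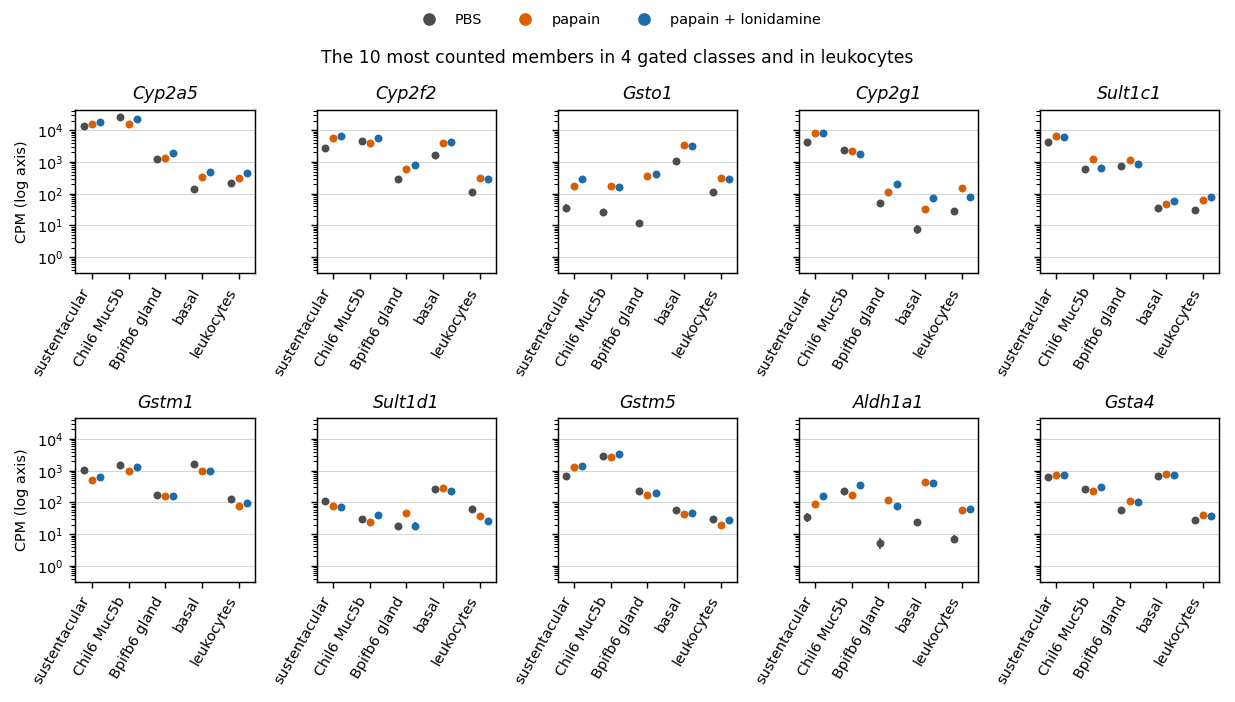
CPM (log axis) of the 10 most counted members in sustentacular-like, Chil6 Muc5b, Bpifb6 gland-like and basal cells and in leukocytes, 1 point per library with its exact Poisson 95% interval. Cyp2g1 is highest in sustentacular-like cells of every library, and the gland-like Gsto1 points of the papain and lonidamine libraries lie close to the leukocyte points.

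In Chil6 Muc5b cells Cyp2a5, Cyp1a2 and Fmo6 were lower in the papain than in the PBS library and higher again in the lonidamine library. Cyp2a5 stood at 25851, 16018 and 22185 CPM (papain over PBS -0.69 [-0.71, -0.67], lonidamine over papain 0.47 [0.45, 0.49]). Cyp1a2 stood at 3000, 1714 and 1993 CPM (-0.81 [-0.85, -0.76] and 0.22 [0.17, 0.27]) and Fmo6 at 1219, 882 and 1400 (-0.47 [-0.54, -0.40] and 0.67 [0.60, 0.73]). None of these passed 2-fold. Cyp2f2 at 4598, 4034 and 5656, Gstm5 at 2829, 2768 and 3360 and Cyp2g1 at 2400, 2282 and 1800 CPM differed less between PBS and papain, and Cyp2g1 was lowest under lonidamine.

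Of 41 members read, 6 were at least 2-fold higher and 1 lower under papain, against 3.99% and 4.19% of 8912 genes. The median log2 ratio was -0.32 over members and -0.11 over all genes, and 10 of the 41 ratios were above 0. The lower member was Cyp2a4, at 82.9, 17.8 and 121 CPM (-2.21 [-2.65, -1.81]), from 264, 61 and 514 UMIs. It was carried by 27.7%, 13.2% and 22.4% of the cells, against at most 0.384% of leukocytes. Sult1c1 was the abundant member past 2-fold upward, at 604, 1275 and 658 CPM (1.08 [1.002, 1.16]). Gsto1 (2.67 [2.35, 3.02]) stayed below its leukocyte level in every library, and Aldh3a1 (1.98 [1.02, 3.19]) did so under PBS and papain. Aldh1a7 (1.92 [1.18, 2.81]), Fmo1 (1.80 [1.20, 2.47]) and Sult1a1 (1.66 [0.75, 2.76]) were higher from 12 to 28 PBS counts. Summed markers of Alox12e Gp2 Clca1 epithelial cells read 313, 2450 and 1864 CPM in this gate, and the pericyte marker Rgs5 read 4845, 11645 and 5253, and their part in these ratios was not tested. The gate's own summed markers were lowest under PBS, at 19403, 45407 and 44619 CPM. Just the 3 markers needed were met by 111 of 159, 51 of 190 and 74 of 281 cells. The part of these differences in either comparison of this gate was not tested.

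Lonidamine against papain, 6 of 48 members were at least 2-fold higher in Chil6 Muc5b cells and 0 lower, against 0.955% and 1.77% of 9210 genes. The median log2 ratio was 0.43 over members and -0.04 over all genes. Cyp2a4 had the largest ratio (2.76 [2.39, 3.18]). Fmo5 stood at 738, 477 and 1174 CPM (1.30 [1.22, 1.38]), Cyp1a1 at 358, 278 and 603 (1.12 [1.01, 1.23]) and Aldh1a1 at 236, 170.4 and 359.9 (1.08 [0.94, 1.22]). In each of these 4 genes the papain library was the lowest and the lonidamine library the highest. Sult1a1, a phenol sulfotransferase, stood at 3.77, 12.3 and 27.9 CPM (1.17 [0.67, 1.73]). Gsto2 had 3, 9 and 42 UMIs (1.86 [0.86, 3.14]), and this direction reversed to -0.98 when each cell weighed equally. Sult1c1 went the other way with a ratio just short of 2-fold (-0.96 [-1.02, -0.89]). With each cell thinned to 2000 UMIs, a Cyp1a1 UMI was found in 41.7%, 35.4% and 51.8% of Chil6 Muc5b cells and in 0.154%, 0.306% and 1.03% of leukocytes. Unthinned, the shares were 70.4%, 61.1% and 75.4% and 0.689%, 0.292% and 1.34%, at median depths of 22318, 18879.5 and 15564 UMIs in the former and 4667.5, 3049 and 2846 in the latter.

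The sex makeup of these cells differed between libraries (46 female and 75 male cells under PBS, 88 and 64 under papain, 158 and 65 under lonidamine), and papain over PBS differed in value between the sexes. Fmo5 read 1221, 328 and 1051 CPM in female and 529, 733 and 1466 in male cells, so papain over PBS was -1.89 [-2.04, -1.75] in the former and 0.47 [0.33, 0.61] in the latter. Cyp1a1 read 487, 214 and 548 and 320.0, 380.3 and 724 (-1.18 [-1.38, -0.98] and 0.25 [0.06, 0.43]). For both genes, female cells were lower under papain and male cells were not. Aldh1a1 had ratios of -1.34 [-1.61, -1.07] in female and -0.02 [-0.24, 0.21] in male cells. In female cells alone, 3 of 31 members read were at least 2-fold higher under papain and 11 lower, against 6.08% and 5.52% of 6181 genes. Cyp2a4 was lower in each sex (-2.53 [-3.11, -2.01] and -2.11 [-3.12, -1.31]). Lonidamine over papain was above 0 in each sex for Cyp2a4 (2.62 [2.16, 3.16] female, 3.55 [2.78, 4.54] male), Fmo5 (1.68 [1.55, 1.81], 0.9995 [0.88, 1.12]), Cyp1a1 (1.35 [1.19, 1.52], 0.93 [0.76, 1.10]) and Aldh1a1 (1.28 [1.05, 1.52], 0.97 [0.76, 1.19]). Sex differences were not tested, since the pools give no replicate animals.

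**Figure D3:**
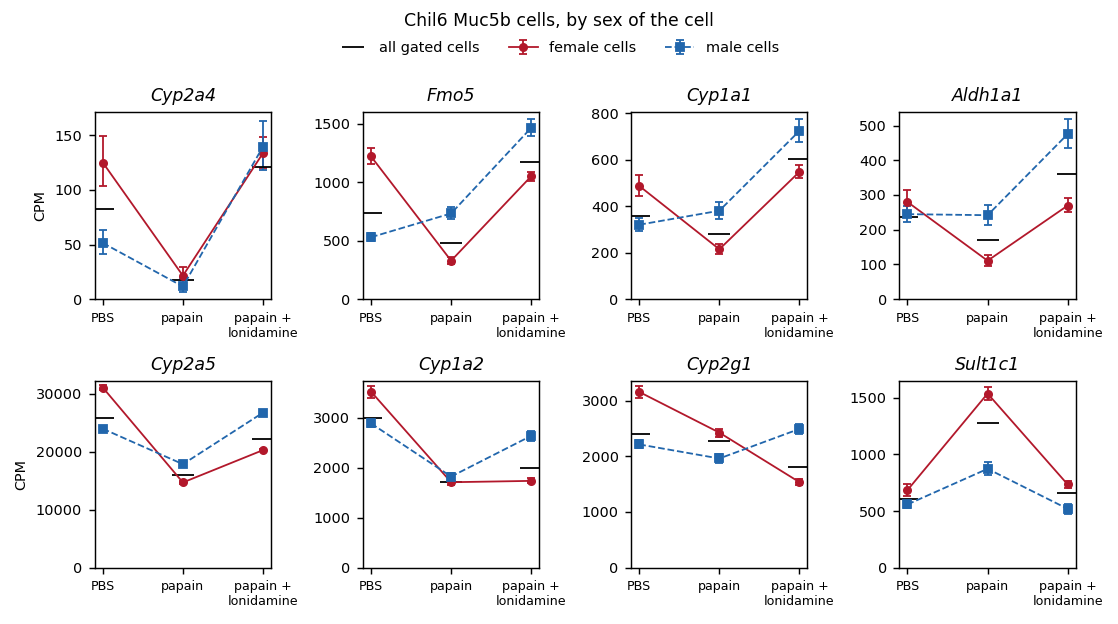
CPM of 8 members in Chil6 Muc5b cells of each library, in cells assigned female (circles, solid line) and male (squares, dashed line) with exact Poisson 95% intervals, and in all gated cells (black bars). Lines join libraries of the same sex and are not a time course: Fmo5, Cyp1a1 and Aldh1a1 dip under papain in female cells only, and Cyp2a4 dips in each sex.

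The Cyp2a genes of the printed promoters differed in level and in the size of the ratio in the same cells. Cyp2a5 exceeded Cyp2a4 in every library, with 82310, 54883 and 93888 against 264, 61 and 514 UMIs in Chil6 Muc5b cells. Of the 90-base stretches in the last 500 bases of the Cyp2a4 transcript, 10.5% also occur in Cyp2a5 or Cyp2a21-ps. Reads from such stretches cannot be told apart. Stretches shared with another gene made up at least 50% in 6 members (Ugt2a1, Ugt2a2, Gstp1, Gstp2, Gstp-ps and Gsta1), whose counts are uncertain for that reason. The Cyp1 pair differed likewise: under lonidamine Cyp1a1 stood 2.17-fold and Cyp1a2 1.16-fold above papain.

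In Bpifb6 Ces1a gland-like cells Cyp2a5, Cyp2f2 and Cyp2g1 were far less abundant than in sustentacular-like or Chil6 Muc5b cells. Cyp2a5 stood at 1206, 1339 and 1935 CPM, Sult1c1 at 751, 1164 and 862 and Cyp2f2 at 281, 599 and 807. Of 34 members read, 10 were at least 2-fold higher under papain and 0 lower, against 4.73% and 2.95% of 8505 genes. Taking a free RNA share off the class left 4 higher and 2 lower. Sult1e1, the estrogen sulfotransferase, was the clearest of the 10, at 194, 545 and 432 CPM (1.49 [1.36, 1.62]) against 44.4, 14.8 and 7.08 in leukocytes, and was higher in female (1.05 [0.86, 1.24]) and male cells (1.63 [1.39, 1.86]). Ugt2a1 stood at 7.16, 20.3 and 25.1 CPM (1.503 [0.80, 2.21]) against 1.12, 1.64 and 2.42 in leukocytes.

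Gsto1, Aldh1a1 and Aldh3a1 had the largest ratios in gland-like cells and were also higher in the leukocytes of the papain library. Gsto1 stood at 11.7, 372 and 424 CPM (4.99 [4.61, 5.41]), beside leukocyte levels of 113, 311 and 295. It was close to these under papain and lonidamine and far below them under PBS. A Gsto1 UMI was found in 0.613%, 31.1% and 13.7% of thinned gland-like cells and 14.7%, 27.5% and 21.4% of thinned leukocytes (27.6%, 45.2% and 45.2% and 32.8%, 42.6% and 33.0% unthinned). Gsto1 read 7.92, 310.2 and 597 CPM in female and 11.1, 20.5 and 28.0 CPM in male cells. Female cells were thus the higher ones under papain and lonidamine but not under PBS. The gate level under papain was above that of each sex, and it also counts cells assigned to neither. Aldh1a1 stood at 5.32, 124 and 79.5 CPM (4.52 [3.95, 5.19]) against 7.07, 57.2 and 60.6 in leukocytes, and Aldh3a1 at 2.45, 29.1 and 27.0 (3.52 [2.64, 4.61]) against 11.5, 35.2 and 19.7. Summed markers of Alox12e Gp2 Clca1 epithelial cells read 22.7, 3473 and 1824 CPM in this gate, and their part in these ratios was not tested. Aldh1a7 (1.79 [1.03, 2.58]) was higher with 27 PBS counts. Median depth of the gland-like cells was 24479, 7393.5 and 13770.5 UMIs.

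Lonidamine against papain, 0 of 34 members were at least 2-fold higher in gland-like cells and 3 lower, against 1.13% and 1.39% of 7267 genes. Fmo5 stood at 128, 227 and 254 and Gstm5 at 224, 172 and 199.99 CPM, both within 2-fold. Sult1d1 (-1.34 [-1.89, -0.81]) and Fmo2 (-1.52 [-2.24, -0.86]) were lower from 84 and 57 papain UMIs, and Gsto2 had 46 and 5 UMIs (-3.59 [-5.40, -2.38]). With the free RNA share taken off, none of the 3 was read as lower.

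Basal epithelial-like cells, the stem and progenitor layer of the epithelium, had Cyp2f2 and Gsto1 as their most abundant members. Cyp2f2 stood at 1657, 3851 and 4344 CPM (1.22 [1.19, 1.25]), Gsto1 at 1068, 3404 and 3113 (1.67 [1.63, 1.71]) and Aldh3a1 at 288, 712 and 768 (1.30 [1.23, 1.38]), with the PBS library lowest for each. Gstm1 at 1614, 979 and 970.1 CPM (-0.72 [-0.76, -0.68]), Fmo6 at 751, 394 and 397 (-0.93 [-0.99, -0.87]) and Sult1e1 at 722, 385 and 226 (-0.91 [-0.97, -0.85]) went the other way, short of 2-fold. Gsta4, which conjugates hydroxynonenal, stood at 670.1, 787 and 714 and Gsta3 at 433, 553 and 584 CPM.

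Of 56 members read in the gate, 17 were at least 2-fold higher under papain and 3 lower, against 7.54% and 7.23% of 11908 genes. The median log2 ratio was 0.17 over members and -0.12 over all genes. Aldh1a1 had the largest ratio, at 25.1, 448 and 412 CPM (4.16 [3.92, 4.41]), with a UMI in 12.3%, 47.7% and 49.3% of cells (2.83%, 26.0% and 29.9% thinned) and in 2.62%, 7.30% and 6.71% of leukocytes (1.16%, 4.39% and 4.32% thinned). Aldh1a7 (3.29 [2.81, 3.85]), Cyp2b10 (2.86 [1.87, 4.30]), Aldh1a3 (2.74 [1.85, 3.97]), Aldh3b2 (2.64 [1.37, 4.72]) and Gsta2 (2.33 [1.60, 3.24]) followed. Beside these ratios, summed markers read 508, 2863 and 1650 CPM for Alox12e Gp2 Clca1 epithelial cells and 3586, 9034 and 9492 for sustentacular cells (of which the reductase Cbr2 was 3382, 8815 and 9230), and their part was not tested. Gstm7 (-1.91 [-2.29, -1.54]), Aldh1l1 (-1.33 [-1.57, -1.10]) and Aldh18a1 (-1.19 [-1.53, -0.85]) were lower.

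The gate drew on different clusters in different libraries, so values are given by cluster as well. A cluster led by Nrcam and Abca4 held 60.5%, 18.8% and 16.4% of gated basal cells, one led by Ifi202b and Krt15 held 16.5%, 50.9% and 51.8%, and one led by Pthlh and Ccl20 held 21.1%, 24.9% and 19.0%. In the Nrcam cluster alone, 5 of 33 members read were at least 2-fold higher under papain and 3 lower, against 3.3% and 4.57% of 8688 genes. In the Ifi202b cluster, 10 of 43 members read were at least 2-fold higher under papain and 5 lower, against 5.97% and 4.97% of 9508 genes. In the Pthlh cluster, 4 of 32 members read were at least 2-fold higher under papain and 1 lower, against 4.51% and 5.01% of 7778 genes. In the Ifi202b cluster Gsto1 stood at 2297, 4419 and 4087 CPM (0.94 [0.89, 1.002]), in the Pthlh cluster at 1478, 2211 and 2361 (0.58 [0.51, 0.65]) and in the Nrcam cluster at 418, 607 and 626 (0.54 [0.42, 0.66]), short of 2-fold in each. The Aldh3a1 ratio was 0.26 [0.16, 0.36], 0.12 [-0.03, 0.28] and 0.55 [0.21, 0.89] in these clusters, and that of Cyp2f2 0.68 [0.63, 0.73], 0.52 [0.47, 0.57] and 1.004 [0.92, 1.09]. Gstm1 also lay nearer to 0 (-0.62 [-0.70, -0.53], -0.33 [-0.42, -0.24] and -0.20 [-0.26, -0.14]). Gsta4, higher under papain in the gate, was lower in each cluster (-0.40 [-0.48, -0.32], -0.61 [-0.71, -0.51] and -0.49 [-0.67, -0.32]). Sult1e1, lower in the gate, was higher in the Ifi202b cluster (0.96 [0.68, 1.27]) and lower in the Pthlh (-0.36 [-0.46, -0.27]) and Nrcam clusters (-0.19 [-0.29, -0.096]).

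Aldh1a1 and Aldh1a7 stayed past 2-fold within the Ifi202b cluster. Aldh1a1 stood there at 94.3, 687 and 633 CPM (2.86 [2.59, 3.15]), above its leukocyte levels of 7.07, 57.2 and 60.6. In the Pthlh cluster it stood at 17.8, 50.6 and 102 CPM (1.49 [0.88, 2.19]), under papain below the leukocyte level, and is not read as expression in that library. Aldh1a7 in the Ifi202b cluster stood at 23.4, 83.7 and 86.7 CPM (1.82 [1.29, 2.46]). Cyp2a5 stood at 47.6, 313 and 374 CPM in the Ifi202b and 96.5, 124 and 349 in the Nrcam cluster, at or below its leukocyte levels of 212, 318 and 464 in every library, and is not read as expression there. In the Pthlh cluster it stood somewhat above them, at 344, 403 and 644 CPM (0.23 [0.07, 0.39]). Fmo6 read 989.8, 943 and 1042 CPM in the Nrcam and 81.3, 134 and 111 in the Ifi202b cluster, so within each library the Nrcam cluster was the higher one. Aldh1l1, lower in the gate, stood at 19.9, 7.82 and 7.42 CPM in the Ifi202b cluster (-1.36 [-2.08, -0.58]), 26.3, 21.1 and 15.7 in the Pthlh (-0.33 [-0.95, 0.32]) and 85.9, 87.7 and 129 in the Nrcam cluster (0.03 [-0.26, 0.32]). Gstm7 had 151, 65 and 60 UMIs in the Nrcam cluster (-0.42 [-0.87, 0.004]), 3, 9 and 17 in the Ifi202b and 12, 10 and 11 in the Pthlh cluster. The Aldh18a1 ratio was -0.26 [-1.11, 0.82] in the Ifi202b and -1.02 [-1.63, -0.48] in the Nrcam cluster. In the Pthlh cluster Aldh18a1 had 17, 31 and 31 UMIs.

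**Figure D4:**
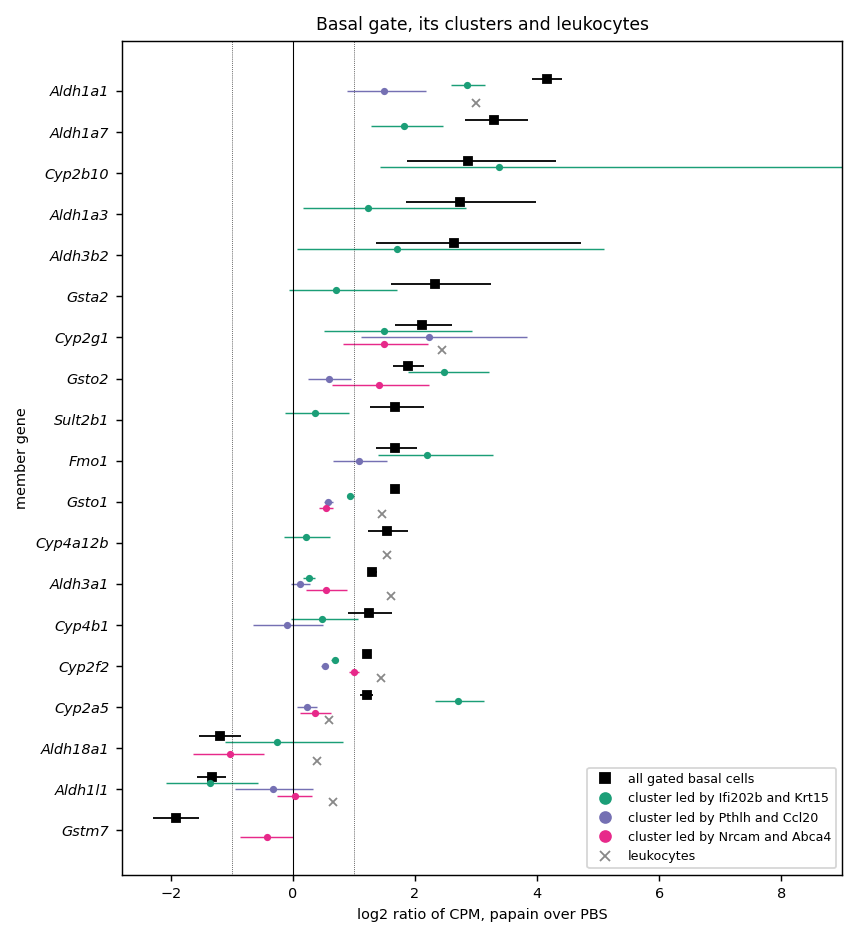
Log2 ratio of CPM, papain over PBS, with 95% counting intervals, of members at least 2-fold apart in the basal gate: all gated cells (black squares), the same cells of 3 clusters (coloured circles) and leukocytes (crosses), where the counts sum to at least 50. The Cyp2b10 interval in the Ifi202b cluster runs past the right edge. Gsto1 and Aldh3a1 are beyond 1 in the gate and below 1 in every cluster, while Aldh1a1 is beyond 1 in the gate, in the Ifi202b and Pthlh clusters and in leukocytes.

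Lonidamine against papain, 2 of 60 members were at least 2-fold higher in basal cells and 0 lower, against 1.37% and 0.444% of 12604 genes. They were Gsta1, with 8, 24 and 56 UMIs (1.24 [0.54, 2.01]), and Cyp2g1, at 7.50, 32.8 and 74.6 CPM (1.18 [1.01, 1.36]) beside 27.6, 151 and 79.4 in leukocytes. A cluster led by Calm4 and Krtdap, with squamous and no basal markers among its leading genes, held 101 of the gated lonidamine cells and 8 of papain, and without it 1 member was higher. Sult1e1 had the lowest ratio of the 8 leading members (-0.77 [-0.84, -0.70]), and was lower in the Ifi202b (-0.96 [-1.11, -0.82]), Pthlh (-0.34 [-0.44, -0.24]) and Nrcam clusters (-0.82 [-0.96, -0.68]). Its level in Chil6 Muc5b cells was 770.1, 694 and 535 CPM.

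Members also differed between libraries in other epithelial classes. In secretory-like cells, with 17, 209 and 185 cells, 8 of 36 members read were at least 2-fold higher under papain and 7 lower, against 7.64% and 11.6% of 6713 genes. Cyp2b10, a target of the receptor CAR, stood there at 124, 35.6 and 86.9 CPM (-1.82 [-2.37, -1.19]) and Cyp2j6 at 418, 121 and 144 (-1.79 [-2.09, -1.47]), the PBS library highest for each. Gsto1 at 809.8, 2543 and 3769 CPM (1.65 [1.45, 1.86]) and Fmo1 at 46.5, 109.6 and 49.0 (1.18 [0.42, 2.20]) were lowest under PBS. Lonidamine against papain, 2 of 43 members were higher in these cells and 1 lower, against 1.63% and 1.04%: Cyp1a2 and Cyp2b10 (1.29 [0.98, 1.61]) were higher and Fmo1 (-1.16 [-1.44, -0.89]) was lower.

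In ionocyte-like microvillous cells 11 of 40 members were higher under papain and 1 lower, against 4.49% and 3.13% of 10403 genes. The lower one was Fmo2, at 273, 121 and 148 CPM (-1.17 [-1.34, -1.002]), far above its leukocyte level of 8.81, 17.5 and 14.7. Lonidamine against papain gave 2 of 35 higher and 1 lower, against 0.928% and 0.437%. In globose basal-like cells, the progenitors of the olfactory neurons, 8 of 20 members were higher under papain and 0 lower, against 3.06% and 0.818%, and Sult1d1, the leading member of mature neurons, stood at 43.2, 142 and 51.5 CPM (1.71 [1.40, 2.04]) beside 62.3, 37.0 and 26.2 in leukocytes. Lonidamine against papain gave 4 of 22 higher and 2 lower there, against 1.32% and 1.4%, with Sult1d1 among the lower ones (-1.46 [-1.80, -1.14]).

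Leading epithelial transcripts were also counted in neuron and leukocyte gates, and the part of free RNA in their ratios was not tested. In leukocytes 9 of 37 members were higher under papain and 1 lower, against 5.77% and 3.55%, and Cyp2g1 led at 27.6, 151 and 79.4 CPM (2.45 [2.23, 2.67]). In mature olfactory neuron-like cells 6 of 31 were higher and 0 lower, against 7.32% and 3%, and none of the 6 exceeded its leukocyte level in any library except Gsto2 at 2.15, 7.29 and 5.71 CPM. In immature neuron-like cells 11 of 35 were higher and 2 lower, against 5.29% and 1.9%, with Cyp2g1 at 36.1, 286 and 183 and Sult1c1 at 52.9, 299 and 166 CPM, above their leukocyte levels. Lonidamine against papain gave 1 higher and 1 lower of 38 in leukocytes (1.69% and 0.994%), 0 and 1 of 31 in mature neuron-like cells (1.49% and 1.72%), and 0 and 1 of 34 in immature ones (1.24% and 1.34%).

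Stromal and vascular cells were read in the same way. In fibroblast-like cells 5 of 30 members were higher under papain and 2 lower, against 6.04% and 5.71%, and lonidamine against papain gave 2 of 37 higher and 1 lower, against 1.38% and 1.01%. Aldh1a3 stood at 95.5, 43.2 and 16.6 CPM in them (papain over PBS -1.14 [-1.54, -0.75], lonidamine over papain -1.38 [-1.88, -0.91]), with almost none in leukocytes. In endothelial-like cells 4 of 34 were higher and 5 lower, against 4.41% and 6%. Gstm7 stood there at 145, 45.7 and 30.5 CPM (-1.66 [-1.95, -1.38]) beside 1.99, 1.64 and 1.73 in leukocytes. Lonidamine against papain gave 2 of 34 higher and 0 lower, against 1.4% and 0.481%, and Cyp4b1, an omega-hydroxylase of fatty acids, stood at 23.8, 8.83 and 25.5 CPM (1.51 [0.90, 2.20]). In pericyte or smooth muscle-like cells 8 of 21 were higher and 2 lower, against 7.18% and 2.83%. Aldh1a2 was one of the 8, at 25.9, 115 and 119 CPM (2.13 [1.62, 2.72]), where leukocytes read 1.61, 2.92 and 2.76. Lonidamine against papain gave 9 of 30 higher and 0 lower, against 1.18% and 0.566%, and Fmo2 had 7, 27 and 105 UMIs in these cells (2.13 [1.53, 2.82]).

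Genes that work with these enzymes were read from 8 lists covering 126 genes. Beside their counts, 9.19% of all genes read were at least 2-fold higher and 4.97% lower under papain over all cells. The shares were 4.97% and 5.37% in sustentacular-like, 3.99% and 4.19% in Chil6 Muc5b, 4.73% and 2.95% in gland-like and 7.54% and 7.23% in basal cells. Basal values of these lists are sums over the gate. The part of its differing cluster makeup was not tested. Of the redox partners, Por, which passes electrons to every microsomal P450, stood at 1161, 1879 and 2153 CPM in sustentacular-like cells (0.69 [0.62, 0.78]) and 1538, 1166 and 1592 in Chil6 Muc5b cells (-0.40 [-0.46, -0.34], then 0.45 [0.39, 0.51] for lonidamine over papain). None of the 9 redox partners was at least 2-fold higher under papain in either class, and 1 was lower in each (Cyb5b in sustentacular-like, Cyb5r1 in Chil6 Muc5b cells). Of the receptors and regulators, 2 of 10 read were higher in basal cells and 1 lower (Ppara). Ahr, the aryl hydrocarbon receptor, stood at 57.9, 164 and 159 CPM there (1.496 [1.33, 1.67]) and Foxa1 at 92.5, 205 and 233 (1.15 [1.01, 1.28]).

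Of the carbonyl, quinone and alcohol enzymes, 6 of 24 read were higher under papain over all cells and 0 lower, and 3 of 17 were higher and 0 lower in gland-like cells. In the other gates 4 of 17 were higher and 4 lower in sustentacular-like cells, 3 and 4 of 19 in Chil6 Muc5b cells, and 4 and 4 of 22 in basal cells. Nqo1, a quinone reductase, stood at 326, 47.9 and 52.1 CPM in basal cells (-2.77 [-2.902, -2.63]) and 371, 117 and 105 in sustentacular-like cells (-1.66 [-1.83, -1.49]). Adh7, the retinol-oxidizing alcohol dehydrogenase, stood at 382, 949.6 and 1236 CPM in basal cells (1.31 [1.25, 1.38]). Aox2, an aldehyde oxidase of olfactory mucosa, stood at 359, 1238 and 1758 CPM in sustentacular-like cells (1.79 [1.65, 1.93]) and 309, 304 and 694 in Chil6 Muc5b cells (1.19 [1.09, 1.30] for lonidamine over papain). In Chil6 Muc5b cells Adh1 read 1023, 435 and 851 and Maob 389, 186 and 421 CPM, the papain library lowest for each.

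Of the retinoid genes, 6 of 13 read were at least 2-fold higher under papain over all cells and 0 lower, and in basal cells 2 of 11 were higher and 2 lower. Rdh10, which makes retinaldehyde, the substrate of Aldh1a1, stood at 16.5, 64.2 and 51.8 CPM in basal cells (1.95 [1.65, 2.28]), while Dhrs3, which reduces retinaldehyde, stood at 274, 135 and 146 (-1.02 [-1.12, -0.92]). Of 8 hydrolases read in sustentacular-like cells, 2 were higher under papain, with Ces1d at 433, 924 and 919.7 CPM (1.09 [0.97, 1.22]). Of 9 glutathione supply genes read over all cells, 0 passed 2-fold in either direction under papain. The cystine carrier Slc7a11 stood at 6.44, 16.3 and 4.61 CPM in sustentacular-like cells (1.26 [0.30, 2.59], then -1.80 [-2.42, -1.24]). Of 9 transporters read over all cells, 1 was higher, Abcc3, at 9.14, 27.5 and 32.6 CPM (1.59 [1.47, 1.71]). Of 17 other conjugating enzymes, 3 were higher and 1 lower, and Papss2, which makes the sulfate donor of the Sult enzymes, stood at 61.0, 136 and 187 CPM (1.15 [1.10, 1.20]).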

How the data were processed

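The authors deposited raw UMI counts in 3 matrices of genes and barcodes. Cell Ranger made them, version 7.1.0 per the file headers and 2.1.1 per the submitters' processing notes, which name build GRCm39. No source used here says whether the authors removed doublets.

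Kept were barcodes with 500 or more UMIs, 200 or more genes and no more than 20% mitochondrial UMIs (9515, 10712 and 12149). Scrublet in scanpy 1.11.5 marked 137, 188 and 262 doublets (1.44%, 1.76% and 2.16%), which were removed. A cell was gated when at least 3 markers of a class (2 for lists of up to 4) had 2 or more UMIs and were at least 3-fold above their mean. Clusters came from leidenalg 0.10.2 at resolution 1 and seed 0 on 2000 variable genes without members, 40 components and 20 neighbours. They gave 38 clusters.

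UMIs were summed per library and class, and ratios formed with 0.5 counts added. No test was possible with 1 library a group. The ratio and its interval were tried on simulated Poisson counts with known folds. That simulation held no variation between animals, libraries or gates, so it cannot speak to such variation. Promoters came from RefSeq tables, matched by symbol, and shared transcript ends from GENCODE vM21, matched by Ensembl identifier. Named are the 10 most counted members, the 8 highest per main gate, and up to 6 members each way past 2-fold whose interval leaves out 0. The values of 1 member are not reported here. Other genes named are from fixed lists or were chosen after their values were seen. Members and lists were chosen with earlier results of these data known.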

Additional observations from a re-analysis of the deposited data

Results flagged for a closer look

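Cyp2a4 went opposite ways in different gates. Papain over PBS was 1.28 on the log2 scale in sustentacular-like cells, where the libraries held 10, 123 and 200 UMIs, and -2.21 in Chil6 Muc5b cells. The difference was not tested.

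Gsto2 did so in the lonidamine comparison: lonidamine over papain was 1.86 in Chil6 Muc5b cells and -3.59 in Bpifb6 Ces1a gland-like cells, from few counts in each. The difference was not tested.

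Fmo1 in Chil6 Muc5b cells differed by sex. Lonidamine over papain was -1.59 in female cells, at 3.16, 41.8 and 13.8 CPM in the 3 libraries, and 2.04 in male cells, at 14.4, 13.3 and 56.2 CPM. The difference was not tested.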

How the results depend on the processing

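Of 972 values of single named members under the alternatives, 760 moved by less than the counting interval, 207 moved beyond it and 5 changed direction. The numbers of members at least 2-fold apart moved by over 1.5 times as follows, with P for papain against PBS and L for lonidamine against papain. In female cells alone, lower L was 2 over all cells. In sustentacular-like cells higher L was 3 and lower L 0. In Chil6 Muc5b cells higher P was 3, lower P 11 and lower L 2. In gland-like cells higher P was 5, lower P 1 and lower L 1, and in basal cells lower P was 5. The PBS library held too few female sustentacular-like cells (19) for that value under papain. In male cells alone, lower P was 5 and lower L 2 over all cells, and higher L 3 and lower L 2 in sustentacular-like cells. Higher P was 2 and higher L 3 in Chil6 Muc5b cells. Higher P was 1, lower P 2 and lower L 0 in gland-like cells, and lower P 6, higher L 6 and lower L 3 in basal cells. Male cells also reversed papain over PBS in sustentacular-like cells for Aldh1a1 (-1.13) and Aldh1a7 (-0.98).

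With each cell weighing equally, lower L was 2 over all cells, higher L 2 in sustentacular-like cells, lower P 3 and lower L 2 in Chil6 Muc5b cells, and lower P 2 and higher L 2 in gland-like cells, and Gsto2 reversed in Chil6 Muc5b cells (-0.98). With clusters in place of gates, sustentacular-like cells gave lower P 1, higher L 3 and lower L 0, Chil6 Muc5b cells lower P 2, gland-like cells lower P 1, and basal cells lower P 6 and higher L 7. With 1 more marker, sustentacular-like cells gave higher L 0 and lower L 0, Chil6 Muc5b cells lower P 2 and higher L 3, and basal cells lower P 6 and lower L 1. With free RNA taken off, sustentacular-like cells gave higher L 5 and lower L 0, gland-like cells higher P 4, lower P 2, higher L 1 and lower L 0, and basal cells higher L 4, and Cyp2g1 reversed in gland-like cells under papain (-1.22). Members with at least 300 UMIs gave lower P 1 and lower L 0 over all cells, and totals without mitochondrial, haemoglobin and ribosomal RNA gave lower P 1 in sustentacular-like cells. The next settings were chosen after seeing the data. The basal cluster led by Ifi202b gave higher P 10 and lower P 5, that led by Pthlh higher P 4, lower P 1 and higher L 1, and that led by Nrcam higher P 5, where Aldh1l1 reversed papain over PBS (0.031). Without the Calm4 cluster, higher L was 1. The cause of each shift was not tested. Keeping doublets, asking for 2000 UMIs, and adding 1 or 0.1 counts moved none of these counts by over 1.5 times. No paired analysis was possible because each group is 1 library. Depth limits the rarer members: with counts under 50 in sum no ratio was read.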
